A study of Homo sapiens with 36 samples.

Results

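U251 is a human glioblastoma cell line, and its cell body fraction was profiled on 3 of the 36 Affymetrix HG-U133 Plus 2.0 arrays of the series. These 3 arrays were set against the 15 cell body arrays of the other 5 lines, which are U87 (glioblastoma), HT1080 (fibrosarcoma), DU145 (prostate carcinoma), MDA231 (breast carcinoma) and MDA435 (long used as a breast carcinoma line, though of disputed origin because it carries melanocytic genes), with 3 arrays each. The remaining 18 arrays hold the pseudopod fraction of the 6 lines, again 3 each. The labels name no transgene and no drug for any line. All cells were plated on porous filters, and the material above the filter (cell bodies) and below it (pseudopods) was scraped off separately, so the cell body fraction is what stayed above the pores and not a whole culture. U251, U87 and HT1080 were grown in DMEM, whereas DU145, MDA231 and MDA435 were grown in RPMI, so a difference between U251 and the RPMI lines cannot be told apart from a difference between media. In bulk RNA of this kind, fewer cells of a type and less RNA per cell cannot be told apart.

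Glioblastoma cells commonly keep parts of the gene programs of neural stem cells, radial glia and glial precursors. SOX2 and SOX3 are transcription factors of neural progenitors, PDGFRA is the growth factor receptor that marks oligodendrocyte precursors, and GFAP, NES, VIM and FABP7 are found in astrocytes and radial glia. A different set of genes, the HLA class II molecules with their chaperone CD74, presents peptides to CD4 T cells; their transcription depends on the coactivator CIITA, which acts through promoter elements known as the X and Y boxes. Tumour cells that are not immune cells can express class II genes, above all after exposure to interferon gamma.

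Each value below is the deposited intensity of 1 probe set for a gene, in linear units, and each difference is U251 minus the mean of the 5 other line means on the log2(intensity + 16) scale, with its standard error. On that scale the difference of a dim gene is understated. A gene was called when limma's Benjamini-Hochberg adjusted p was under 0.05 over all 15136 genes tested. It was called apart when its differences from each of the 5 lines had 1 sign, the largest of the 5 p-values passed the same threshold after adjustment, and the smallest difference was at least 1 (2-fold on that scale). Array medians were between 23.6 and 25.4 in the U251 cell bodies and between 22.2 and 30.6 in the other cell bodies. The 3 U251 arrays correlated with each other at r between 0.985 and 0.988 across the 15136 genes, and with the arrays of other lines at r between 0.821 and 0.860, with HT1080 nearest on average (0.855) and U87, the other glioblastoma line, at 0.845; genes are not independent replicates, so these are descriptions. Replicate 2 of MDA231 and replicates 2 and 3 of MDA435 stood apart from their groups in the epithelial adhesion genes: CDH1 was at 1777.5 in that MDA231 array against 8.2 and 2.2 in its other arrays, and at 1044.1 and 2463.0 in those MDA435 arrays against 32.8 in the remaining one. That MDA231 array also differed beyond these genes. HLA-DRA was at 472.2 in it against 1859.6 and 1327.1 in the other MDA231 arrays, and ERAP2 at 708.0 against 276.0 and 284.8. Nothing in the labels says whether the 3 arrays of a group came from separate cultures, so p-values measure the spread between these arrays only.

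Of the 15136 genes, 3336 were called higher in U251 (22.0%) and 4093 lower (27.0%), or 49.1% in either direction. The difference was 2-fold or more for 1099 of the higher and 1048 of the lower genes, and 8-fold or more for 167 of the higher and 81 of the lower genes. The median difference over all genes was -0.07. The shares of 22.0% higher and 27.0% lower are to be set beside the count of every gene list below. Apart from every other line were 325 higher genes (2.15%) and 155 lower genes (1.02%), together 3.17%. With the same rule, 214 higher and 182 lower genes set U87 apart, against 257 and 120 for DU145, 244 and 129 for MDA435, 131 and 76 for HT1080, and 108 and 67 for MDA231. Without the 3 arrays with high CDH1, 330 higher and 157 lower genes were apart, of which 296 and 143 were among those counted with them. Among the 325 higher genes, 86 had passed the filter on dim genes through U251 alone. The median level of the higher genes was 405.3 in U251 and 37.1 in the mean of the other lines; for the lower genes it was 33.53 in U251 and 443.97 in the other lines, and 53 of these had a U251 mean under 16.

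The largest higher differences were held by genes that were bright in U251 and near the bottom of the scale in most other lines. COL11A1, a fibrillar collagen chain of cartilage and of developing tissues, was at 3654.5, 3116.6 and 3694.7 in the U251 arrays, and the 15 other arrays had a lowest of 0.5, a median of 9.6 and a highest of 18.1. The difference was 7.17 ± 0.18 (adjusted p = 5.88e-15, limma). COL11A1, and NLGN4X and CALB1 below, had passed the filter on dim genes through U251 alone and so had to differ. GPM6A, a membrane glycoprotein of the proteolipid family that promotes filopodia in neurons, was at 3822.2, 3670.5 and 4307.7 in U251, and the other arrays had a lowest of 2.6, a median of 21.3 and a highest of 46.8. The difference was 6.79 ± 0.14, and 3 of its 3 bright probe sets had the same sign. PRSS35, a serine protease-like protein, was at 2806.1, 1954.2 and 2774.6 in U251 and at 1.3 to 73.5 elsewhere, with the HT1080 arrays as the nearest. NLGN4X, a postsynaptic adhesion protein, was at 1659.8, 1505.1 and 1589.7 in U251 and never above 11.6 in another line (6.26 ± 0.11). CALB1, a calcium-binding protein of neurons, was at 1278.0, 1660.7 and 1891.6 in U251 and at 1.3 to 14.7 in the other arrays (6.08 ± 0.14). HS6ST2, which sulfates heparan sulfate chains, was at 2403.9, 2017.6 and 2175.6 in U251 and at 2.5 to 82.7 elsewhere (5.96 ± 0.18).

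**Figure D1:**
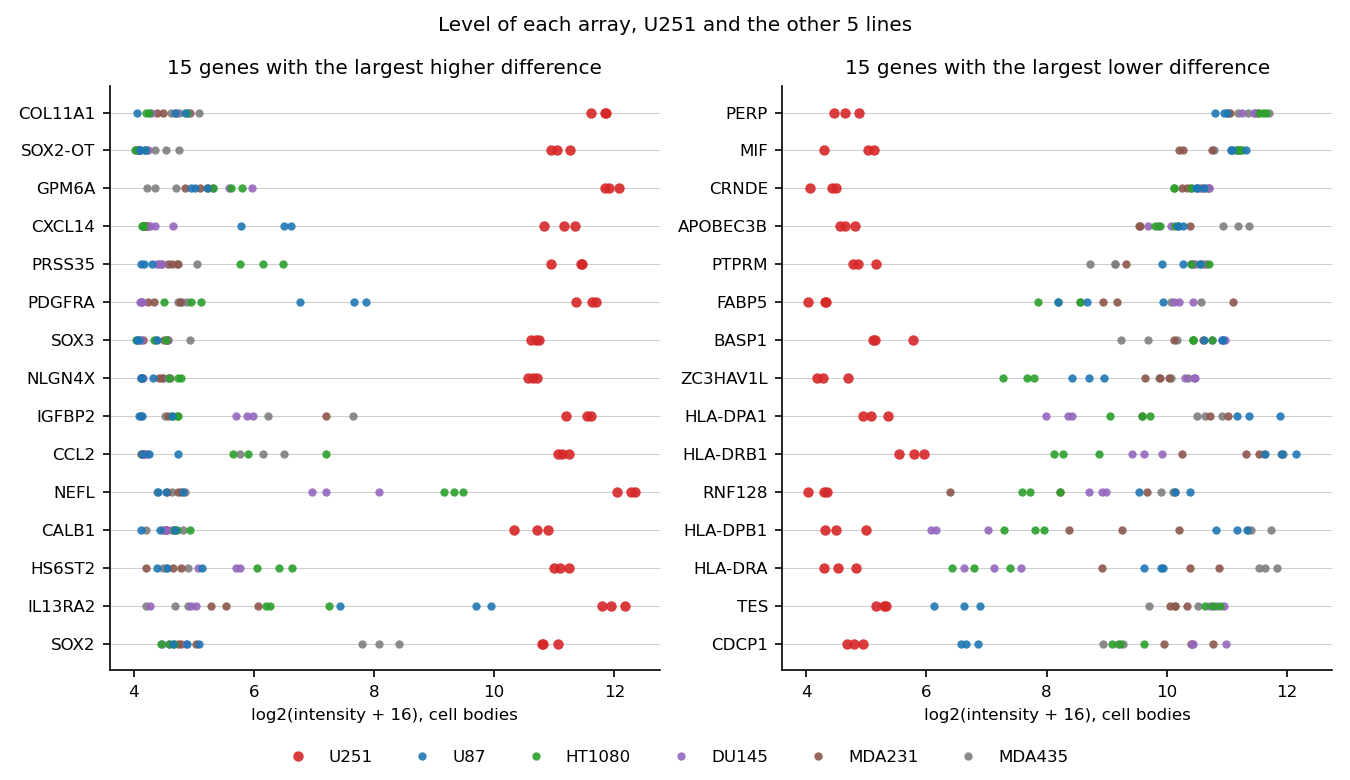
Level of every cell body array as log2(intensity + 16) (horizontal axes) for the 15 genes with the largest higher and the 15 with the largest lower difference among those apart from every other line; 1 point per array, coloured by line, with U251 as the larger red points. The 30 genes were picked among those whose 3 U251 arrays did not overlap the 15 others, so the clear gap was a condition of entry. COL11A1 leads on the left with a difference of 7.17 and PERP on the right with -6.65.

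Several neural progenitor transcription factors were higher in U251. SOX2 was at 1773.4, 1754.0 and 2111.0 in U251, and the other arrays had a lowest of 5.9, a median of 11.6 and a highest of 324.0. MDA435 was next with a mean of 262, the other 4 lines averaged 13.6 or less, and the difference was 5.48 ± 0.13 (adjusted p = 3.11e-15). SOX3, its close relative, was at 1695.8, 1546.5 and 1649.1 in U251 and at 0.4 to 14.5 elsewhere, a difference of 6.34 ± 0.16 that none of the other lines approached. SOX2-OT, the long noncoding RNA whose gene contains SOX2, was at 1954.7, 2446.8 and 2099.5 in U251 and at no more than 10.9 in another line (6.89 ± 0.10). SOX2-OT too had passed the filter on dim genes through U251 alone and so had to differ. Of the 33 tested members of the list of neural stem and glial lineage transcription factors, 18 were called higher, 6 lower and 9 neither, with a median difference of 0.89, against 22.0% higher, 27.0% lower and a median of -0.07 over all genes. The apart members were SOX2, SOX3, SOX11, NFIB, HEY1, POU3F2 and SALL3, all higher; SOX3 and SOX11 had passed the filter on dim genes through U251 alone and so had to differ. The same holds for 1 to 3 members in each of the lists of astrocyte, mesenchymal, collagen, matrix glycoprotein, cadherin, receptor tyrosine kinase, axon guidance, Notch, Wnt and ion channel genes, whose higher counts below include them. POU3F2, a factor of neural progenitors and neurons, was at 851.0, 915.3 and 789.2 in U251 against 405 in MDA435, the nearest line, and 25.8 in U87. SALL3, a zinc finger factor, was at 220.2, 325.5 and 217.3 in U251 and at 14.1 to 30.6 elsewhere. Also higher but not apart were ZIC1 (2.03), SOX5 (1.93), PAX6 (1.60), SOX9 (1.59) and HES1 (1.40). The lower members were ZIC2 (-2.14) and the oligodendrocyte lineage factors OLIG1 (-1.07), SOX10 (-1.05) and OLIG2 (-0.67), with NFIA (-0.88) and SOX6 (-0.71). OLIG2 was at 13.9, 14.6 and 9.1 in U251 and at 296 on average in MDA435, with U87 (21.3) the next line.

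Radial glia genes were high in U251, in several cases together with MDA435 or U87. FABP7, the brain fatty acid binding protein of radial glia, was at 3956.6, 4115.6 and 3936.6 in U251, at 2056 on average in MDA435 and at no more than 46.8 on average in the other 4 lines. PTPRZ1, a receptor phosphatase of glial precursors, showed the same order, with 1296.4, 1318.2 and 1066.5 in U251 and 716 in MDA435. NES, the intermediate filament nestin, was at 2371.6, 1703.9 and 2096.3 in U251, and the other line means ran from 4.80 in HT1080 to 982 in MDA435 (4.18 ± 0.37). GFAP, the astrocyte filament protein, was at 142.5, 189.9 and 115.4 in U251 and at 2.4 to 51.9 in the other arrays. It was apart and higher (2.19 ± 0.20, adjusted p = 9.74e-08), and U87, the other glioblastoma line, averaged 7.13. GJA1, the gap junction protein connexin 43, was at 4286 in U251 and 4341 in U87, which overlapped, and at no more than 304 in the other 4 lines. S100B, a calcium-binding protein of astrocytes, was at 24.4, 26.9 and 37.5 in U251, at 2128 in MDA435 and at no more than 2.07 in the other lines; it was not called (-0.02 ± 0.11, adjusted p = 0.909), and without MDA435 the S100B log2 difference was 1.36. AQP4, the astrocyte water channel, did not pass the filter, with a U251 mean of 13.2. Of the 25 tested astrocyte and radial glia genes, 15 were called higher and 3 lower, with a median of 0.79 and a summed intensity of 33558 to 39607 in the U251 arrays against 9862.5 to 29163 in the others. One of the 3 lower genes was FABP5, the epidermal relative of FABP7: it was at 3.8, 4.1 and 0.3 in U251 and at 217.2 to 2174.2 elsewhere (-5.15 ± 0.42).

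PDGFRA had the largest difference among the receptor tyrosine kinases tested. It was at 3134.4, 2624.7 and 3315.5 in U251, and the other arrays had a lowest of 1.1, a median of 11.3 and a highest of 216.7, with the U87 arrays on top. The difference was 6.43 ± 0.18 (adjusted p = 2.29e-14), and U251 stood 17.6-fold above U87, the nearest line. CNTN1, a neural adhesion protein, was at 1017.3, 1098.1 and 868.0 in U251 and at 4.3 to 136.6 elsewhere (4.39 ± 0.21). GPM6B, the relative of GPM6A, was at 3354.7, 3182.6 and 3886.2 in U251 and also at 2472 on average in MDA435, while the other lines averaged 2.83 to 37.3. In contrast CSPG4, the NG2 proteoglycan of the same precursor cells, was apart and lower, at 2.0, 4.4 and 2.2 in U251 and 14.7 to 773.0 elsewhere (-2.77 ± 0.21). The list of oligodendrocyte precursor and myelin genes was divided, with 5 of 15 tested members higher, 7 lower and a median of -0.33. Against U87 and HT1080 alone its median was 1.02, with 6 higher and 2 lower.

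Neuronal genes were more often higher than lower, at 17 higher and 2 lower of 24 tested, with a median of 0.76. NEFL, the light neurofilament protein, was at 4942.7, 4220.9 and 5159.5 in U251; HT1080 averaged 628 and DU145 164, and the other 3 lines were at no more than 9.83. That made a difference of 6.09 ± 0.17. SCG2, a secretory granule protein, was at 4483.2, 3790.3 and 5754.1 in U251 and at 14.6 to 918.7 elsewhere (5.10 ± 0.32). GAP43, the growth cone protein, was at 821.9, 1011.2 and 655.9 in U251, at 76.8 in U87 and at no more than 14.3 in the other lines. NRCAM, a neuronal adhesion molecule, was at 1131.8, 937.8 and 921.2 in U251 against a highest value of 225.8 in another line. GRIK2, a kainate receptor subunit, was the remaining apart gene of the list (3.36 ± 0.20). The neuronal genes STMN2 and DCX did not pass the filter, with U251 means of 3.77 and 11.3. The microtubule and neurite proteins had 19 of 32 higher and 6 lower, with a median of 0.49; TUBB2B, a tubulin of developing brain, was at 891.3, 1296.1 and 977.7 in U251 and 7.9 to 217.2 elsewhere, and the actin bundler FSCN1 (2.00 ± 0.26) and the collapsin response mediators DPYSL3 (3.85 ± 0.41) and DPYSL4 (2.72 ± 0.19) were apart as well. BASP1, a membrane protein of growth cones, was the only apart and lower member, at 19.2, 38.5 and 18.7 in U251 and 589.4 to 1984.1 elsewhere. Its second bright probe set had the opposite sign. Of 16 neural adhesion proteins 9 were higher and 3 lower, and of 28 ion channels and transporters 11 were higher and 5 lower, with medians of 0.67 and 0.31; the 28 include KCNN3, SLC1A2 and SCN3A, which passed the filter through U251 alone. SCN3A, a sodium channel of developing brain, was apart, at 123.2, 120.9 and 157.0 in U251 and 7.8 or less in every other array.

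**Figure D2:**
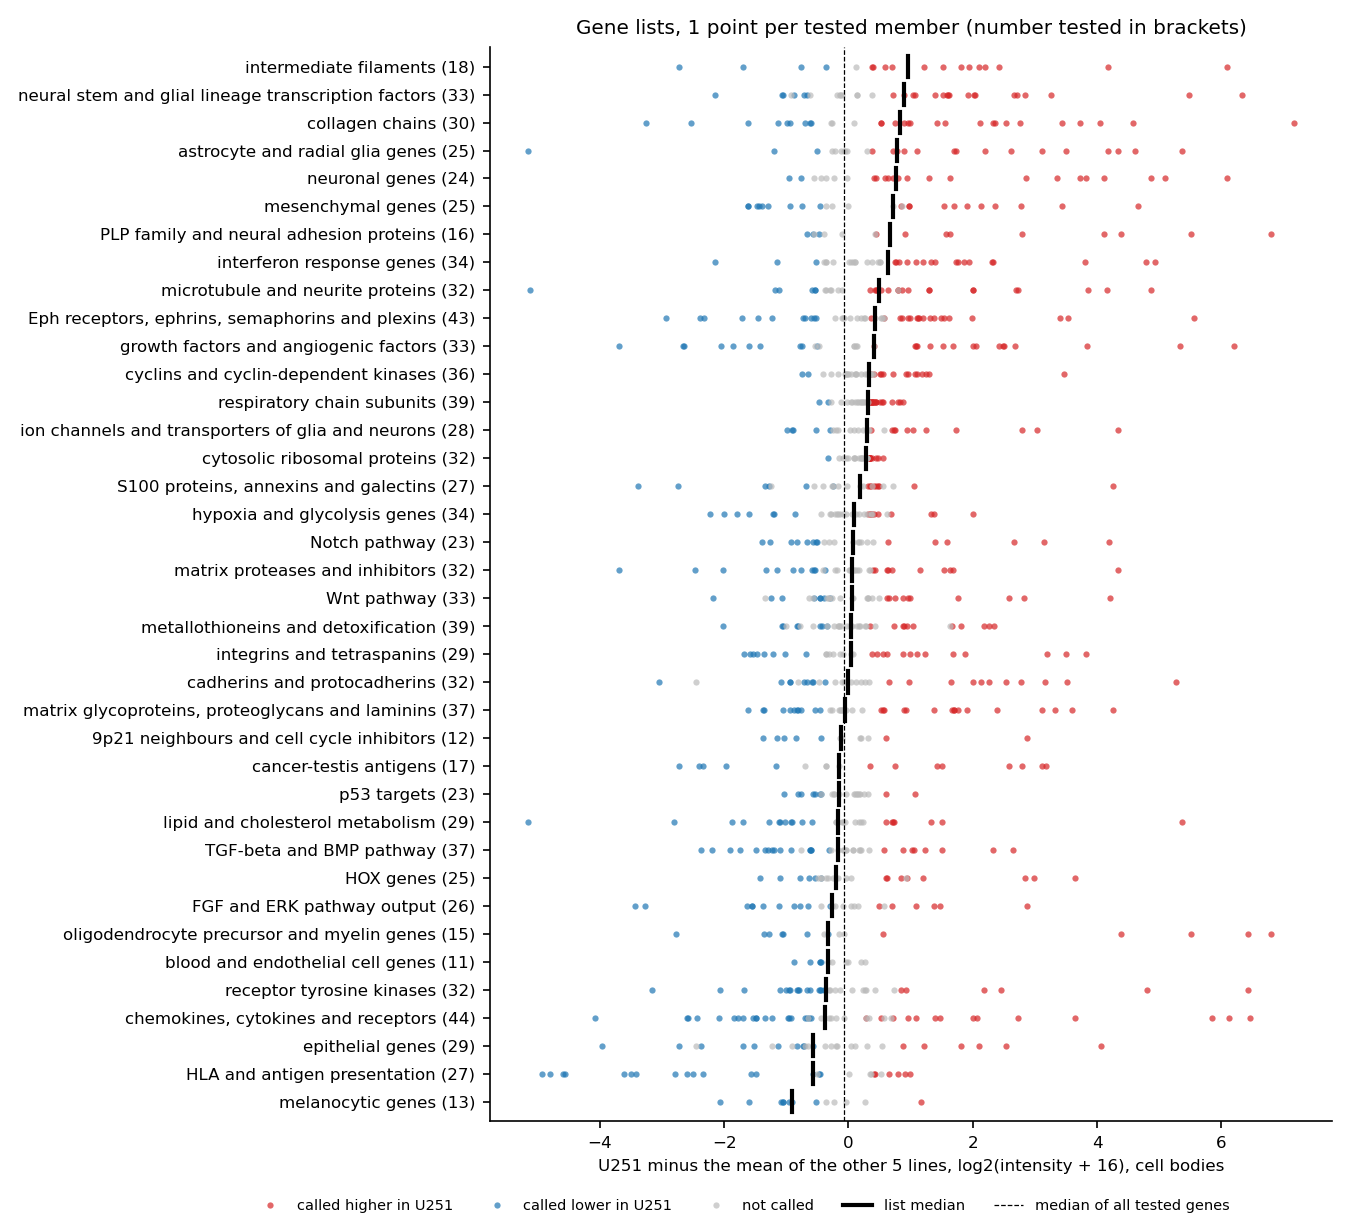
Difference of U251 cell bodies from the mean of the other 5 lines (horizontal axis, log2(intensity + 16)) for every tested member of 38 gene lists, with the number tested in brackets; red and blue points were called higher and lower, grey points were not called, black bars are list medians and the dashed line is the median of all genes. Medians run from 0.96 for intermediate filaments to -0.91 for melanocytic genes, and nearly every list holds members called in both directions.

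Axon guidance genes were mixed, with 19 of 43 called higher and 11 lower (22.0% and 27.0% over all genes), at a median of 0.43. EPHA3, an ephrin receptor found in glioblastoma stem cells, was at 2164.8, 2236.6 and 1911.3 in U251 and 1384 in MDA435 but at no more than 6.33 in the other 4 lines. The repulsive ligand SEMA3A was at 1043.1, 793.8 and 1172.8 in U251 and 28.0 to 283.6 elsewhere (3.41 ± 0.24), whereas its receptor NRP1 was at 150.9, 136.6 and 159.9 in U251 and 169.7 to 3581.7 elsewhere (-2.93 ± 0.21), lower in U251 than in every other array. UNC5C, a netrin receptor, was at 289.7, 302.2 and 230.3 in U251 and 4.9 to 16.4 elsewhere. In the cadherin list 11 of 32 were higher and 9 lower, with a median of -0.002, and the apart members PCDH17, PCDH10, PCDH19 and CDH10 are cadherins of the nervous system. PCDH17 was at 1367.9, 1048.6 and 1069.4 in U251 and 5.2 to 64.2 elsewhere (5.27 ± 0.10). PCDHB2, a clustered protocadherin, was apart and lower (-3.05 ± 0.20).

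Collagen genes were higher in U251 for 18 of 30 tested chains and lower for 9 (22.0% and 27.0% over all genes), with a median of 0.83. Apart were COL11A1, the basement membrane chain COL4A6 (3.72 ± 0.17) and COL9A3, COL14A1 and COL21A1, which decorate or link fibrils. COL9A3 was at 502.8, 763.9 and 686.7 in U251 and 0.7 to 304.4 in the other arrays, where the high values were those of MDA435. The 6 tested chains of type IV collagen, the scaffold of basement membranes, were all called higher, from 0.52 for COL4A3 to 3.72 for COL4A6. The paired chains of type I collagen differed: COL1A2 was at 1442 in U251, 4717 in U87 and no more than 92.4 in the other lines, while COL1A1 was lower in U251 (-1.61 ± 0.22). COL13A1 (-3.26) and COL6A3 (-2.53) were the lowest. Of 37 matrix glycoproteins and proteoglycans 16 were higher and 11 lower; FBLN1, a fibulin, was at 882.1, 857.0 and 586.0 in U251 and 0.7 to 147.1 elsewhere, and FN1, fibronectin, was lower (-1.61 ± 0.23). Matrix proteases and inhibitors gave 10 higher and 11 lower of 32. The interstitial collagenase MMP1 was at 12.1, 11.7 and 12.5 in U251 and 23.4 to 3391.6 elsewhere, apart and lower, and ADAM12 was at 2235 in U251 and 1640.4 in U87 but at no more than 111 in the other lines. Integrins and tetraspanins gave 13 higher and 8 lower of 29 (11 and 10 with quantile normalization), led by ITGA7 (3.83 ± 0.13), a laminin receptor chain, and ITGB8 (3.50 ± 0.41), a chain that activates TGF-beta. ITGB8 averaged 2490.1 in U251 and 2243 in MDA435, whose arrays overlapped.

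Receptor tyrosine kinases were more often lower, at 16 of 32 against 6 higher (27.0% and 22.0% over all genes), with a median of -0.36. The 4 apart members were all higher: PDGFRA, FGFR3, FGFR2 and NTRK3. FGFR3 was at 1770.2, 806.7 and 2011.5 in U251 and 1.2 to 148.3 elsewhere (4.80 ± 0.24). EGFR, the receptor often amplified in glioblastoma, was at 236.8, 257.4 and 177.6 in U251 against means of 133 in MDA435 to 1036 in MDA231, and was called lower (adjusted p = 0.00103, limma) although it lay above MDA435. INSR, the insulin receptor, was at 7.7, 7.7 and 3.1 in U251 and 10.7 to 449.6 elsewhere, lower than in every other array, with HT1080 (18.1) as the nearest line. Among readouts of the ERK pathway downstream of these receptors 11 of 26 were lower and 6 higher: IER3 was at 315.5, 259.3 and 337.7 in U251 and 1339.8 to 6460.2 elsewhere (-3.43 ± 0.12), and the ERK phosphatase DUSP4 at 107.7, 63.0 and 47.4 in U251 and 249.4 to 2096.2 elsewhere (-3.28 ± 0.23). Notch pathway genes gave 6 higher and 8 lower of 23, but the target HEY1 (2.67 ± 0.10), the HES family member HES6 (3.14 ± 0.17) and the glycosyltransferase LFNG (4.20 ± 0.29) were apart and higher, while the receptors NOTCH1 (-0.50), NOTCH2 (-0.57) and NOTCH3 (-0.83) were lower. Wnt pathway genes gave 10 higher and 8 lower of 33 (22.0% and 27.0% over all genes). The higher ones included the secreted inhibitors SFRP4 (4.21), SFRP1 (2.82), DKK1 (2.58) and DKK3 (1.76). SFRP4 alone of these was apart: SFRP1 averaged 1347 in U251 and 1131 in MDA435, DKK1 3859 in U251 and 2638 in MDA231, and DKK3 1366 in U251 and 2148 in MDA435. TGF-beta and BMP genes gave 8 higher and 16 lower of 37; the inhibitory SMAD7 was at 18.4, 11.4 and 12.7 in U251 and 77.7 to 229.8 elsewhere (-2.37 ± 0.12), and the signal transducers SMAD2 (-1.30), SMAD3 (-0.60) and SMAD4 (-0.60) were also lower.

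Secreted signals held some of the largest differences in both directions. CXCL14, an epithelial and glial chemokine, was at 2594.9, 1793.9 and 2271.1 in U251, at 65.4 in U87 and at no more than 5.60 in the other lines. CCL2, which recruits monocytes, was at 2218.2, 2119.8 and 2418.9 in U251 and 1.3 to 131.4 elsewhere (6.13 ± 0.22). IL13RA2, the decoy receptor for interleukin 13 that many glioblastomas carry, was at 3923.6, 3531.6 and 4593.1 in U251, 647 in U87 and 85.0 in HT1080, with the other lines lower. Even so, 20 of 44 chemokines, cytokines and receptors were lower and 14 higher (median -0.38). Lower were IL24 (-4.08 ± 0.29) and the neutrophil attractants CXCL1 (-2.58), CXCL2 (-2.44), CXCL3 (-1.34), CXCL5 (-2.60), CXCL6 (-0.63) and CXCL8 (-0.92). Growth and angiogenic factors gave 16 higher and 10 lower of 33. IGFBP2, an IGF binding protein raised in glioblastoma, was at 2336.9, 2979.6 and 3121.3 in U251 and 1.0 to 184.2 elsewhere (6.20 ± 0.52), and IGFBP5 at 851.2, 1364.8 and 874.9 in U251 and 1.3 to 103.7 elsewhere (5.33 ± 0.26). The PDGF receptor ligands PDGFA (1.11), PDGFC (2.05) and PDGFD (2.51) were higher, and the EGF receptor ligands EREG (-3.69) and HBEGF (-1.87) lower.

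HLA class II genes were low in U251. HLA-DRA, the alpha chain shared by all HLA-DR molecules, was at 7.1, 12.3 and 3.5 in U251, and the other arrays had a lowest of 70.3, a median of 771.8 and a highest of 3644.5. The lowest other array was an HT1080 array, still well above U251. HLA-DRB1 was at 46.5, 30.5 and 39.6 in U251 and 262.8 to 4544.0 elsewhere (-4.80 ± 0.21); the HLA-DRB genes are close copies, so its probe set may read more than 1 of them. HLA-DPA1 was at 24.9, 14.8 and 17.8 in U251 and 239.5 to 3787.2 elsewhere (-4.94 ± 0.23), and HLA-DPB1 at 15.9, 3.9 and 6.5 in U251 and 51.1 to 3412.8 elsewhere (-4.60 ± 0.28), a gene that was not apart with the mean of all its probe sets, with a pseudocount of 64 or without its _x_at and _s_at probe sets. HLA-DMA, which loads peptides, was at 35.7, 39.3 and 29.8 in U251 and 282.2 to 2121.1 elsewhere (-3.62 ± 0.23). The 5 genes HLA-DRA, HLA-DRB1, HLA-DPA1, HLA-DPB1 and HLA-DMA were all apart, next to the peptide trimming enzymes ERAP2 (-2.79 ± 0.21) and ERAP1 (-2.50 ± 0.18); for ERAP1, 1 of 4 bright probe sets had this sign. CD74 was at 15.2, 16.4 and 17.4 in U251 and 32.3 to 2311.1 elsewhere (-3.42 ± 0.24), lower than in every other array, with HT1080 the nearest line at 44.9. CIITA, their coactivator, was at 0.7, 1.1 and 1.5 in U251; DU145 (6.60) and HT1080 (7.53) were next, and MDA435 was the highest at 161 (-1.56 ± 0.22, adjusted p = 1.97e-05). HLA-DQB1 was at 1.2, 2.1 and 0.9 in U251 but also at 2.00 on average in HT1080. Class I genes did not share this: HLA-B was at 4101.5, 3441.3 and 4607.1 in U251 and 2138.0 to 5614.8 elsewhere (0.36 ± 0.15, adjusted p = 0.0542), HLA-C was called slightly higher (0.40 ± 0.12), and so was B2M (0.42 ± 0.13), although with quantile normalization only 4 members of the list were called higher instead of 6. Over the whole antigen presentation list 16 of 27 were lower and 6 higher.

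Promoters of class II genes are shown because these genes were called lower together. The 150 bases before the annotated start were read from RefSeq (GRCh38.p14) for 8 of the 9 genes HLA-DRA, HLA-DRB1, HLA-DPA1, HLA-DPB1, HLA-DQA1, HLA-DQB1, HLA-DMA, HLA-DMB and CD74, and the letters ATTGG (core of the Y box, an inverted CCAAT) and TGATGAT (part of the X box in several class II genes) were searched on both strands. HLA-DRA was the gene without a sequence. ATTGG occurred in 7 of the 8, against 24.4% of the 27305 promoters of the table. HLA-DPA1 was without it, and its stretch (chr6:33080749-33080898) lies beyond that of HLA-DPB1 (chr6:33075840-33075989, plus strand). Whether this annotated start of HLA-DPA1 is the one in use was not tested. TGATGAT occurred in 3 of the 8, against 1.35% (368) of the table. The 3 promoters with both, and that of CD74, follow 5′ to 3′ on the minus strand, with these letters or their reverse complement in capitals. HLA-DRB1 spans chr6:32589849-32589998, HLA-DMA chr6:32953098-32953247, HLA-DMB chr6:32941029-32941178 and CD74 chr5:150412911-150413060.
HLA-DRB1: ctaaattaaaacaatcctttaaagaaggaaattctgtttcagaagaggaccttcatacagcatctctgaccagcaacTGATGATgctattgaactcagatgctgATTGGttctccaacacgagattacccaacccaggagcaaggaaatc
HLA-DMA: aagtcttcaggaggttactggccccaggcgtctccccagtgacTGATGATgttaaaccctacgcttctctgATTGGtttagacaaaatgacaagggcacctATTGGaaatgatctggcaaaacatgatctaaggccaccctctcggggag
HLA-DMB: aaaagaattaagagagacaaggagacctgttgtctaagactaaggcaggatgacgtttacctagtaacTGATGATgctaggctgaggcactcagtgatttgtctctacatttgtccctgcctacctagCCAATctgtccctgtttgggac
CD74: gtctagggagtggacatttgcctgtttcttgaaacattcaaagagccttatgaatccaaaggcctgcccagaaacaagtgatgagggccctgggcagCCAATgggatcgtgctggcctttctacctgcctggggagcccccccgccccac
A match of letters is a description and not a site.

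**Figure D3:**
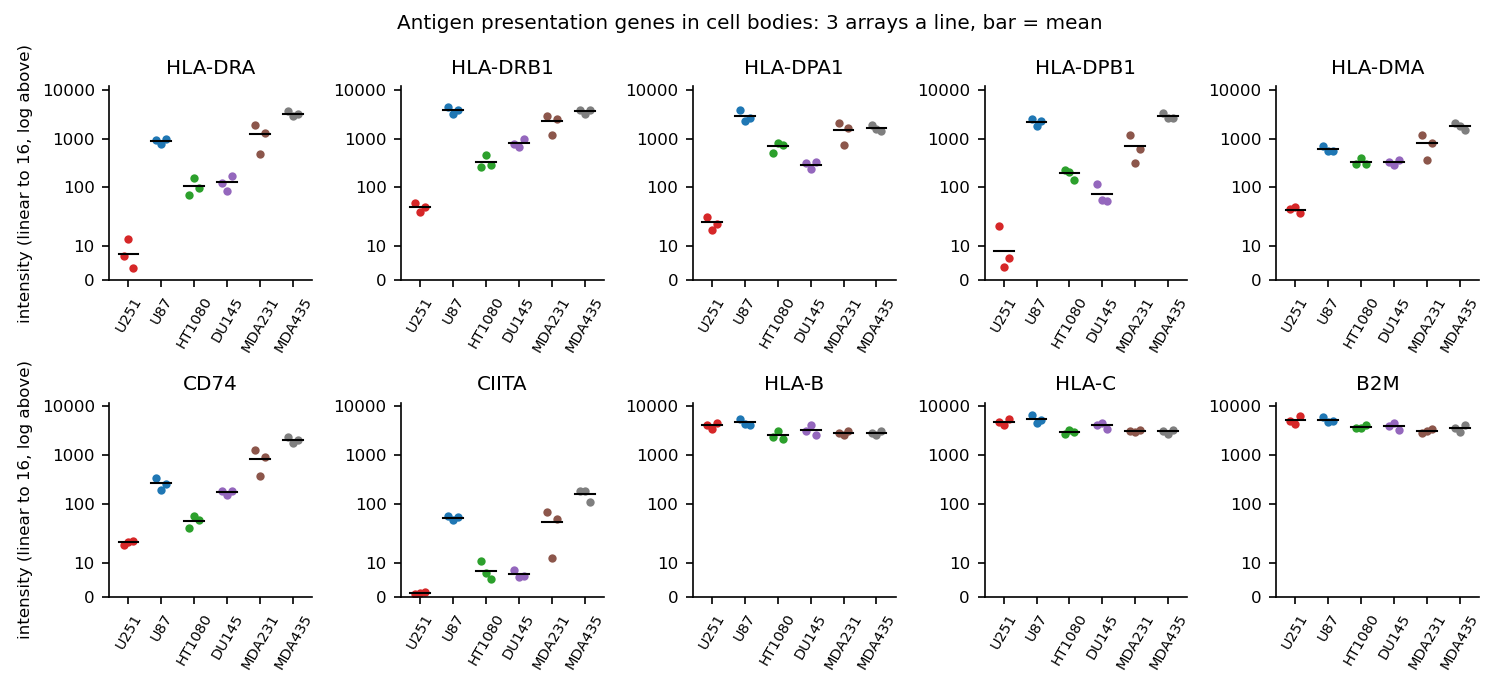
Intensity (vertical axes, linear to 16 and logarithmic above) of 10 antigen presentation genes in the cell bodies of the 6 lines, U251 at the left; points are arrays and bars are means of 3. In the class II genes, CD74 and CIITA the U251 points lie lowest, whereas HLA-B, HLA-C and B2M are bright in every line, with HLA-B at 2138.0 or more in every array.

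Interferon response genes were more often higher in U251. Of 34 tested, 17 were called higher and 3 lower, with a median of 0.63. IFI27, an interferon-induced mitochondrial protein, was at 1784.3, 1610.7 and 3071.6 in U251 and 3.0 to 296.9 elsewhere (4.94 ± 0.33). BST2, tetherin, was at 2829.0, 2294.5 and 3857.1 in U251 and also at 896 in MDA231 and 748 in MDA435, but at no more than 19.6 in the other lines. ISG15 (2.32), IFIH1 (1.94), IFIT1 (1.86), IFI44 (2.33) and MX1 (1.33) were higher, and IRF7 (-2.15), a factor that drives such genes, was lower with MX2 (-1.14) and ISG20 (-0.53). The 3 U251 arrays were spread in this list, with replicate 3 highest in IFI27, BST2, IFI44L, IFI44, ISG15, IFIT1, IFIH1 and MX1. The count was 24 higher and 2 lower against the DMEM lines alone, and 9 higher and 4 lower against the RPMI lines alone.

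Other genes lowest in U251 belong to no single list. PERP, a tetraspan membrane protein of desmosomes and a p53 target, was at 13.5, 9.0 and 5.9 in U251 and between 1779.3 and 3340.0 elsewhere. The difference was -6.65 ± 0.13 (adjusted p = 1.88e-16), and 3 of 3 bright probe sets had the same sign. MIF, a cytokine with tautomerase activity found in most cells, was at 16.6, 18.8 and 3.5 in U251 and 1169.6 to 2530.5 elsewhere (-6.19 ± 0.15), read by 1 probe set. CRNDE, a long noncoding RNA that is raised in many tumours including gliomas, was at 0.6, 5.6 and 6.6 in U251 and 1095.1 to 1658.3 elsewhere (-6.14 ± 0.11). Each of the 3 was uniformly high in the other 5 lines and near the bottom of the scale in U251. APOBEC3B, a cytidine deaminase, was at 7.5, 9.1 and 11.9 in U251 and 730.1 to 2630.2 elsewhere (-5.54 ± 0.15); its relatives in the APOBEC3 cluster are similar in sequence. PTPRM, a receptor phosphatase of cell contacts, averaged 14.7 in U251 and was at 404.8 to 1655.7 elsewhere. ZC3HAV1L was at 9.9, 2.1 and 3.4 in U251 and 138.7 to 1399.9 elsewhere. The ubiquitin ligase RNF128 was at 4.3, 3.6 and 0.3 in U251 and 67.9 to 1325.2 elsewhere. TES, a focal adhesion protein, was at 19.7, 24.1 and 23.2 in U251 and 53.6 to 1958.1 elsewhere. CDCP1, a surface protein of epithelial tumours, was at 11.6, 14.7 and 9.6 in U251 and 79.0 to 2006.3 elsewhere; U87 was the nearest line for both TES (79.8) and CDCP1 (87.8), and neither remained apart with a pseudocount of 64 or with the mean of all probe sets.

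The 150 bases before the starts of PERP, MIF and CRNDE, the 3 genes with the largest lower differences, are shown for their density of CG dinucleotides, which are in capitals. They read 5′ to 3′, for PERP on the minus strand at chr6:138107420-138107569, for MIF on the plus strand at chr22:23894233-23894382 and for CRNDE on the minus strand at chr16:54928887-54929036 (RefSeq, GRCh38.p14).
PERP: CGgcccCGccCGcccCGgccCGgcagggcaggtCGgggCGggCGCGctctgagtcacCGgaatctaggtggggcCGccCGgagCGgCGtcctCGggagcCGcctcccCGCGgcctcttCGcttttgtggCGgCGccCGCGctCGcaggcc
MIF: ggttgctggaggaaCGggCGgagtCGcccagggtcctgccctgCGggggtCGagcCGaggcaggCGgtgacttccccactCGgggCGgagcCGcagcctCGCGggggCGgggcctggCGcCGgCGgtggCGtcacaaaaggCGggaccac
CRNDE: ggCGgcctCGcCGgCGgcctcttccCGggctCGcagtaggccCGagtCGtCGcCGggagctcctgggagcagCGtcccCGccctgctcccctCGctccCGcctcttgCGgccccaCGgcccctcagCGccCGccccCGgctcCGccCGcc
They hold 24, 18 and 21 CG dinucleotides, numbers that 4.5%, 17.7% and 9.88% of the promoters in the table reach or pass. Over the apart genes with a promoter of 300 bases in the table, the observed over expected CG ratio was above 0.6 in 64.2% of 260 higher genes and in 79.0% of 119 lower genes, against 75.5% of all 12088 tested genes with one.

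Lineage genes of the other lines were mostly low or divided in U251. Of 29 epithelial genes 10 were lower and 6 higher with a median of -0.57, and this order depended on the lines compared. Against DU145, MDA231 and MDA435 the count was 14 lower and 3 higher, and against U87 and HT1080 it was 2 lower and 12 higher. EPCAM, an epithelial adhesion molecule, was at 1.0, 11.8 and 6.9 in U251 and at 7.93 in HT1080, but at 2434 in DU145 (-3.96 ± 0.65). CDH1 was at 6.1, 3.4 and 5.9 in U251 and was not called (-2.46 ± 1.06, adjusted p = 0.0648); without the 3 arrays with high CDH1, which were chosen on this gene, the CDH1 log2 difference was -1.36 (adjusted p = 5.78e-05, limma). The tight junction protein CLDN1 was higher, at 2181 in U251, level with DU145 (2191) and far above the other 4 lines. Summed epithelial intensity was 7689.5 to 9715.9 in the U251 arrays and 814.5 to 28939 in the others. Mesenchymal genes gave 11 higher and 9 lower of 25 (median 0.72), and 8 higher and 12 lower against U87 and HT1080 alone. THY1, a surface glycoprotein of neurons and fibroblasts, was at 1625.6, 1347.7 and 925.6 in U251 and 1.7 to 377.5 elsewhere (4.67 ± 0.23). CDH2 was at 1349 in U251, 1159.9 in HT1080, 794 in MDA435 and 750 in U87 but 2.83 in DU145 and 6.97 in MDA231, and was not apart. The transcription factors SNAI2 (-1.39) and ZEB1 (-1.30) were lower while TWIST1 (1.54) and ZEB2 (0.97) were higher. Of 13 melanocytic genes 8 were lower and 1 was higher, with a median of -0.91; the melanocyte regulator MITF averaged 122 in U251, 118 in HT1080 and 1827 in MDA435. The list of blood and endothelial genes gave 0 higher and 5 lower of 11 by limma. Summed intensities were 383.7 to 496.4 in U251 and 266.1 to 1927.6 in the others. The leukocyte marker PTPRC did not pass the filter, nor did VWF, at a U251 mean of 22.2 and at most 10 elsewhere. Endothelial genes outside the list, chosen after their values were seen, were higher: VCAM1 (5.31), PTPRB (3.19), CALCRL (1.91) and CD34 (1.39). The count thus describes the listed genes only.

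Positional and germline genes were divided. Of 25 tested HOX genes 8 were higher and 6 lower (22.0% and 27.0% over all genes). HOXD10 was at 704.0, 863.7 and 643.9 in U251, at 314 in HT1080 and at no more than 49.7 in the other lines. HOXD11 (2.98 ± 0.18) and HOXB3 (2.83 ± 0.41) were apart too, while the neighbours HOXB2 (-1.42) and HOXB4 (-1.11) were lower but not apart. HOXB2 averaged 104.4 in U251, above MDA231 (34.4). Of 17 cancer-testis antigens 8 were higher and 5 lower. MAGEA12 was at 2693 in U251, close to HT1080 (2496) and MDA435 (2489.9), and CTAG2, which those lines also carry, was at 1.0, 1.2 and 1.4 in U251. MTAP, a gene at 9p21 next to CDKN2A, was at 458.5, 492.3 and 470.9 in U251, against 4.87 in U87 and 4.63 in HT1080, while CDKN2A itself was at 23.4, 35.9 and 34.6 in U251, 26.4 in U87 and 1354 in DU145. CDKN2A was called lower (-1.38 ± 0.20), but the difference from U87 and HT1080 alone was 0.25 (adjusted p = 0.325). The list of 9p21 neighbours and cell cycle inhibitors gave 2 higher and 5 lower of 12. The p53 targets gave 2 higher and 7 lower of 23 (1 higher and 15 lower against the DMEM lines alone, 5 and 5 against the RPMI lines alone). CDKN1A was called lower (-1.03 ± 0.15), at 286 in U251 and 1298 in HT1080, although U251 lay above MDA435 (139). MGMT, the DNA repair enzyme tested in gliomas, was at 0.9, 1.0 and 1.8 in U251 and 0.933 in U87, against 62.9 in DU145. IDH1 was lower than in every other array, at 564.3, 714.6 and 746.4 in U251 and 828.8 to 1924.3 elsewhere (-1.10 ± 0.12).

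Cyclins, kinases and replication genes were higher for 14 of 36 and lower for 2 (22.0% and 27.0% over all genes), with a median of 0.34. CCNA1, a cyclin of germ cells, was apart at 501.3, 527.9 and 616.7 in U251 and 2.9 to 153.7 elsewhere, CDK6 was above every other array at 962.2, 840.8 and 992.7 (1.26 ± 0.11), and MKI67 was higher (1.07 ± 0.18), while CCND1 (-0.65) and CCND2 (-0.75) were lower. Respiratory chain subunits gave 22 higher and 2 lower of 39, and cytosolic ribosomal proteins 12 higher and 1 lower of 32, at medians of 0.32 and 0.28; with quantile normalization these counts were 10 higher and 3 lower, and 0 higher and 3 lower, so the direction of the ribosomal list depended on the scaling. In the deposited scaling ACTB was called higher (0.37 ± 0.13) and GAPDH was not called (0.36 ± 0.16, adjusted p = 0.0679, limma). Hypoxia and glycolysis genes gave 10 higher and 7 lower of 34, but 6 and 8 with quantile normalization and 4 and 14 against the DMEM lines alone. LDHA, lactate dehydrogenase A, was at 938.9, 1103.3 and 1125.4 in U251 and 2719.0 to 6058.1 elsewhere, apart and lower (-1.79 ± 0.13). The hypoxia factor EPAS1 averaged 158 in U251 against 2329.9 in U87. In pseudopods EPAS1 was lower still in MDA435, at 136.8, 93.8 and 54.4 against 153.2, 164.0 and 201.0 in U251. Lipid and cholesterol genes gave 7 higher and 12 lower of 29; MSMO1, a sterol oxidase, was at 223.5, 250.3 and 227.7 in U251 and 622.5 to 1569.7 elsewhere (-1.88 ± 0.14). Of 18 intermediate filament genes 13 were higher and 4 lower, with the highest median of all lists (0.96): besides NEFL, NES and GFAP these were SYNM (1.95), LMNB1 (1.52) and the keratins KRT8 (1.82), KRT18 (1.22), KRT15 (2.10) and KRT80 (2.43), against KRT19 (-2.72) and KRT7 (-1.70) on the lower side. S100 proteins, annexins and galectins gave 9 higher and 6 lower of 27, but 3 and 6 with quantile normalization; S100A2 was at 5302.0, 5008.7 and 7438.3 in U251 and 40.8 to 1277.4 elsewhere (4.25 ± 0.26), and ANXA6 was apart and lower (-3.39 ± 0.24), although its 2 bright probe sets disagreed in sign. Metallothioneins and detoxification genes gave 11 higher and 8 lower of 39, with GSTM4 apart and higher (1.82 ± 0.12) and the drug pump ABCG2 apart and lower (-2.03 ± 0.22).

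The pseudopod arrays give the same contrast in arrays that the rule for apart genes did not use, though the protocol in the labels took both fractions of a line from the same filters. Of 14916 genes tested there, 2650 were called higher in U251 (17.8%) and 3056 lower (20.5%). All 319 apart and higher genes tested in pseudopods were called higher there, and 152 of 154 apart and lower genes were called lower. By the same rule 250 and 110 were apart. Of the 325 apart and higher genes, 86 had passed the filter on dim genes through U251 alone. Those were dim in the cell bodies of the other lines, and each probe set was picked over all 36 arrays. The agreement is therefore a description and not an independent test. Among all genes called in cell bodies, 2286 of 3296 higher ones and 2604 of 4003 lower ones were called in the same direction in pseudopods, and 1 and 0 in the opposite one. SOX2 was at 1948.6, 1714.6 and 1633.9 in U251 pseudopods and 4.8 to 357.8 in the 15 other pseudopod arrays, and HLA-DRA at 2.2, 10.6 and 8.1 in U251 pseudopods and 34.5 to 1901.6 in the others. Differences in pseudopods were 6.27 ± 0.15 for GPM6A, 5.70 ± 0.23 for PDGFRA, -5.88 ± 0.21 for PERP and -5.89 ± 0.13 for MIF. In a fit of all 36 arrays the contrast itself differed between the fractions for 39 of 15399 genes (0.253%), of which 28 were apart and higher and 2 apart and lower in cell bodies. This count was 16 without U251 pseudopod replicate 2, 18 without U251 cell body replicate 3, 3 with a pseudocount of 1, 82 with a pseudocount of 64 and 273 with array weights. In 26 of those 28 and in both lower genes the contrast was smaller in pseudopods, and these genes had been selected for a large difference in cell bodies. VCAM1, an adhesion molecule chosen here after its values were seen, differed by 5.31 in cell bodies and 3.55 in pseudopods, and the noncoding RNA LNCAROD, chosen likewise, by 3.34 in cell bodies and 4.72 in pseudopods.

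**Figure D4:**
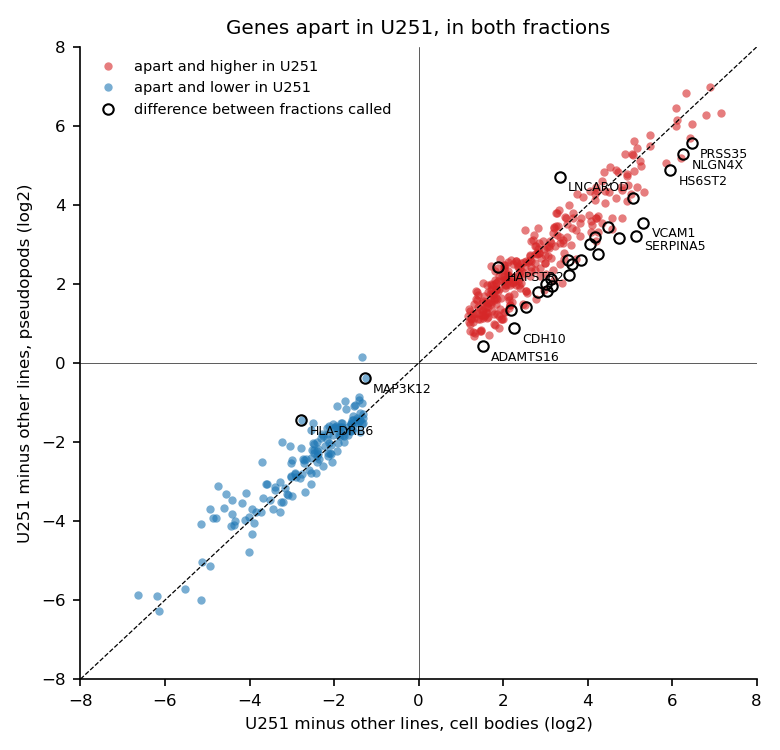
Difference of U251 from the mean of the other lines in cell bodies (horizontal axis, log2) and in pseudopods (vertical axis, log2) for the genes apart in cell bodies and tested in both fractions; the 319 red points were higher and the 154 blue points lower in U251, black circles mark genes whose contrast differed between the fractions, and the dashed line is equality. The points follow the line in both quadrants, and most circled genes lie nearer to 0 in pseudopods; LNCAROD and HAPSTR2 are the circled genes that lie farther from it.

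Some runs of neighbouring genes had mostly low or mostly high members in U251. Windows of 30 consecutive tested genes were taken along each chromosome in RefSeq order, 14422 in all, and their median differences ran from -0.57 at the 1st to 0.59 at the 99th percentile. The 3 lowest and 3 highest windows that did not overlap were picked by these values, so their cell body values are a description. On chromosome 10 the window from SFTA1P to CUBN had a median of -1.03, with 28 of 30 genes called lower and 1 higher and NUDT5, PTER and RSU1 apart, and the window from MKX to HSD17B7P2 a median of -0.84 with 24 called lower and 0 higher. On chromosome 18 the window from MIB1 to GAREM1 had a median of -0.88, with 21 called lower and 3 higher and NPC1, OSBPL1A and B4GALT6 apart; CDH2 (2.78) lies in it and was higher. The high windows were ZNF316 to TWIST1 on chromosome 7 (median 1.08, with 20 called higher and 3 lower), UBR1 to SLC30A4 on chromosome 15 (0.91, with 24 called higher, 1 lower and 7 apart) and SUN1 to SDK1 on chromosome 7 (0.76, with 20 called higher, 3 lower and 7 apart, LFNG among them). AHR, the aryl hydrocarbon receptor, lies in the first of these and was apart and lower (-4.12). In the pseudopod arrays the medians of these 6 windows were -1.10, -0.87, -1.05, 1.16, 1.10 and 0.81. Over whole chromosomes the median difference was lowest on chromosome 18 (-0.34), chromosome 20 (-0.20) and chromosome 10 (-0.20), and the share of tested genes that were apart and lower was 3.95% on chromosome 18 and 2.47% on chromosome 10.

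**Figure D5:**
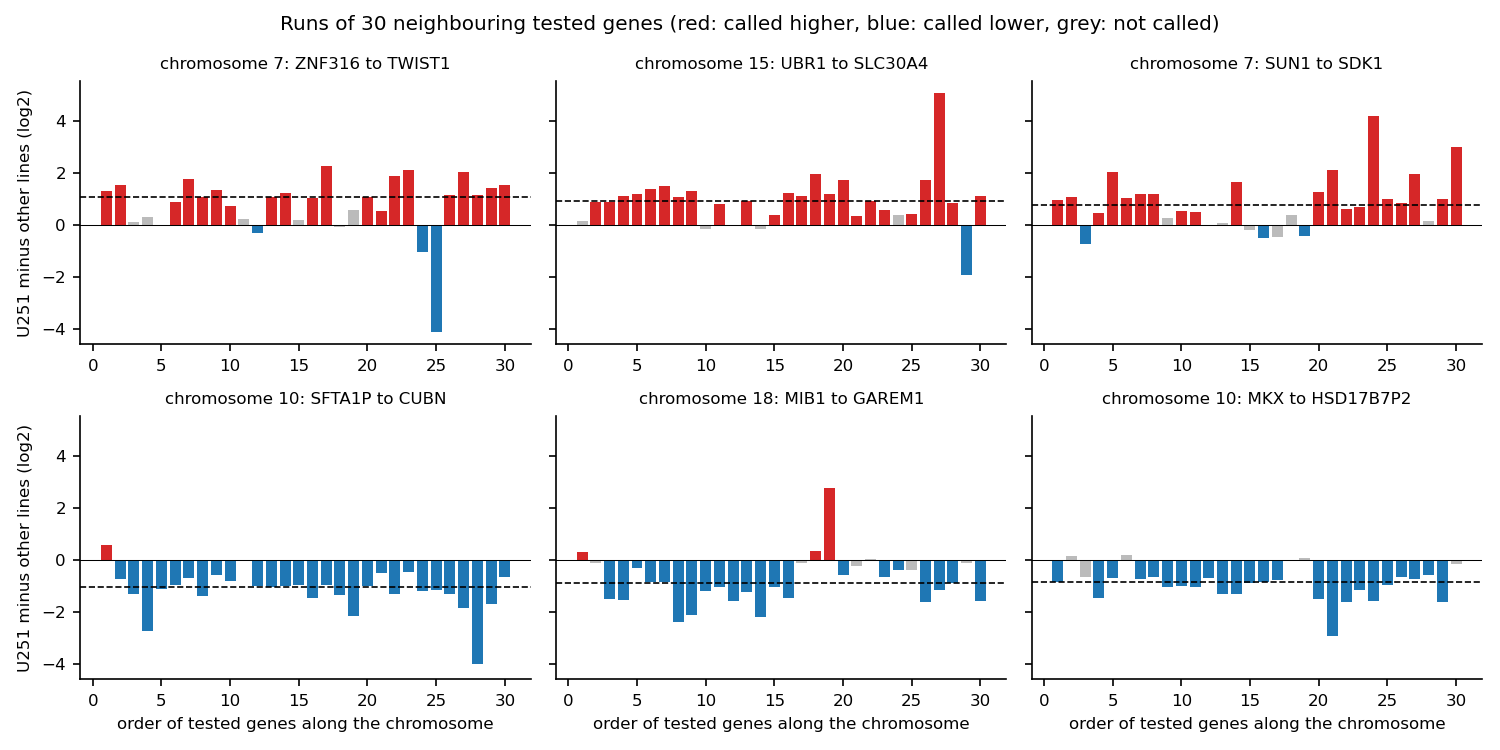
Difference of U251 cell bodies from the mean of the other lines (vertical axes, log2(intensity + 16)) for the 30 genes of each of 6 windows, in their order along the chromosome (horizontal axes); red and blue bars were called higher and lower, grey bars were not called, and dashed lines are window medians. In the chromosome 10 window from SFTA1P to CUBN, 28 of 30 bars are blue, and the chromosome 15 window has 24 red bars.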

How the data were processed

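RNA of 2 scraped fractions of 6 human cell lines had been labelled with a 2-cycle protocol and hybridised to 36 one-colour arrays, per the labels. The deposited values are the authors' normalized intensity per probe set, on a linear scale from 0 to 9883.2. RMA and Partek appear in the submitters' processing notes, with neither version nor step, and which program produced linear values was not given in the sources read here. The mean of each array after trimming 2% at each end was 149.18 to 149.59. The number of arrays limits the precision. All value columns were used (0 left out).

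Values were analysed as log2(intensity + 16) of the deposited intensities with limma 3.58.1 in R 4.3.3 (lmFit, eBayes, 2-sided, Benjamini-Hochberg), on 18 cell body arrays with 6 group means and 12 residual degrees of freedom. Of 54593 probe sets 41074 had 1 gene symbol, 1798 several and 11721 none; 41020 were updated through RefSeq (GRCh38.p14). Each gene was read by its probe set with the highest mean over 36 arrays, and kept where the highest cell body group mean was at least 24.4, the median of all values (15136 of 19775 genes).

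The genes and lists were chosen with earlier results of these data known. Named by rule were the 15 largest higher and lower differences among genes apart without overlap, up to 4 called members of each list with the largest differences, and a list fixed by name (17 tested, 8 higher, 6 lower). Other members named to describe a list were chosen after their values were seen. In simulated data for 15136 genes, the mean contrast called 92% of 100 genes given a 2-fold change, and 100% of 100 at 4-fold. It made 12 false calls among the rest, which were set to no difference. In the data 49.1% of genes were called, so these rates need not carry over. Alternatives covered scaling, pseudocount, filter, probe set choice, array weights, lines, media and single arrays. Python 3.11.15 and matplotlib 3.10.9 drew the plots.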

Additional observations from a re-analysis of the deposited data

Results flagged for a closer look

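For 7 of the genes named by rule, the U251 contrast differed between pseudopods and cell bodies in the test of that difference over all 36 arrays (limma, Benjamini-Hochberg). All 7 had been named for a large difference in cell bodies, and NLGN4X, COL14A1, PCDH19, UNC5C and SCN3A had passed the filter on dim genes through U251 alone. How much of the smaller value in the other fraction comes from this choice was not tested, and it is not read as a finding. The log2 contrast in pseudopods minus that in cell bodies was -0.899 for PRSS35, -0.974 for NLGN4X, -1.08 for HS6ST2, -1.05 for COL14A1, -1.2 for PCDH19, -0.931 for UNC5C and -1.21 for SCN3A. Over the 15399 genes in that test 39 passed (0.253%), and this number ranged from 16 to 50 when single arrays were left out.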

How the results depend on the processing

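Leaving out 1 array at a time gave 2616 to 3547 genes called higher and 3067 to 4288 lower in cell bodies, 308 to 332 apart and higher and 148 to 166 apart and lower, 2095 to 2834 higher and 2297 to 3252 lower in pseudopods, and 16 to 50 genes whose contrast differed between fractions (16 without U251 pseudopod replicate 2, 18 without U251 cell body replicate 3). The number apart and higher was 534 without MDA231 and MDA435, 849 against the DMEM lines only and 521 against the RPMI lines only, where fewer lines had to be passed. The number apart and lower was 89 with a pseudocount of 64, 238 without MDA435, 324 without MDA231 and MDA435, 636 against the DMEM lines only and 348 against the RPMI lines only. Genes whose contrast differed between fractions numbered 3 with a pseudocount of 1, 82 with a pseudocount of 64 and 273 with array weights; the cause was not tested. With equal array medians 3687 genes were called higher and 3311 lower, so that 52.7% of calls were higher, against 44.9% in the deposited scaling.

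Of the values of 165 named genes over 38 settings, 6119 kept direction and call, 57 lost the call, 25 gained it and 14 changed sign. Sign changes were CSF1R 0.072 against the RPMI lines only, CDKN2A 0.25 and CDKN1C 0.094 against the DMEM lines only, and, without _x_at and _s_at probe sets, PTN -0.121, ANXA6 0.003 and GSTM3 -0.022. The S100B log2 difference, not called in the first place, was 1.629 with a pseudocount of 1, 0.014 with equal array medians, 1.363 without MDA435, 1.376 without MDA231 and MDA435, 1.366 against the DMEM lines only, and -0.138 to 0.064 when single arrays were left out. With the replicate number as a block, 3274 genes were called higher and 4025 lower and 322 and 156 were apart; same-numbered arrays correlated in their deviations at r of -0.0801 to 0.204, so the numbers were not taken to pair them. Signal near the bottom of the scale limits how large a difference of a dim gene can appear.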
